A study of Drosophila melanogaster with 4 samples.

Results

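Sec71 and 8 further genes of Golgi coat trafficking were examined in S2 cells, 9 genes of the 17697 in the tables. Sec71 (FBgn0028538) was named because its transcript was among those with the largest decrease after heat shock in these same libraries, so its change is given here as a description and carries no test. The other 8 genes, garz, alphaCOP, betaCOP, beta'COP, gammaCOP, Sec23, Sec31 and Sar1, were named by function to ask whether the decrease of Sec71 is shared by the genes of the COPI and COPII coats. All 9 passed the filter on low counts.

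S2 is a cultured line derived from late Drosophila embryos, and the labels give a wild type genotype for all libraries. Poly(A) RNA was sequenced from 2 libraries of untreated cells, which grew at 27 °C, and from 2 libraries of cells that were kept at 37 °C for 1 h and then returned to 27 °C for 1 h. All cells thus came from a single line, and the heat shock samples had already had time to recover. The labels report separate lysis for the heat shock replicates and do not report it for the untreated ones, so p-values measure the spread between these libraries, which may be technical.

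Vesicles move cargo between the endoplasmic reticulum (ER), the Golgi apparatus and later compartments. Several kinds of vesicle are shaped by a protein coat that a small GTPase of the Arf family recruits to the membrane. Sar1 recruits the COPII coat at the ER, for export towards the Golgi, and Arf1 recruits the COPI coat at the Golgi, for retrieval and transport within it. Arf GTPases are switched on by exchange factors with a catalytic Sec7 domain: garz (gartenzwerg, the fly counterpart of the mammalian GBF proteins) acts at the early Golgi and is needed for COPI recruitment, while Sec71 is the fly counterpart of the mammalian BIG proteins, which act at the trans-Golgi network. Despite its name, fly Sec71 is not related to the yeast Sec71 subunit of the ER translocon.

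Library totals ranged from 10221418 to 11988483 estimated counts. The 19 heat shock genes matched held 0.675% to 0.713% of the counts in untreated cells, compared with 21.8% to 23.98% after heat shock. Of 9 hemocyte markers checked against the label, srp, ush and crq were above 85 TPM (a length-corrected share of the transcripts) in every library, whereas Hml, Pxn, He, NimC1, eater and Sr-CI stayed at or below 1.56 TPM. Summed TPM of the hemocyte list were 448 and 472 in untreated cells, compared with 350 and 314 after heat shock. As shares, these sums also depend on the larger part held by heat shock genes after heat shock. With libraries scaled to a common level over most genes (TMM), srp and ush rose and crq fell. Their log2 fold changes were 0.37, 0.37 and -0.45 (edgeR adjusted p = 0.00856, 0.0126 and 7.4e-04). The lists of other cell types were led by the neuronal gene elav, at 22.2 to 30.6 TPM, and tj, the marker of ovarian somatic cells, was at 0 in all libraries. The part of these differences in the results below was not tested.

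Sec71 lies on 2L from 13793521 to 13799674 (release 6), on the plus strand, and has a single annotated transcript. The libraries held 567 and 523 estimated Sec71 counts before heat shock and 126 and 124 after it. Depth-scaled counts (CPM) with TMM scaling, which sets the libraries to a common level over most genes, were 45.3 and 42.7 in untreated cells, compared with 12.6 and 14.2 after heat shock. The groups were far apart compared with the difference between replicates. Sec71 after heat shock was at 30.4% of its untreated mean, a log2 fold change of -1.72 ± 0.10 (SE, n = 2 libraries per group), and ranked 6 from the bottom among the 5958 genes with a group mean of at least 10 CPM. No exon of another gene overlaps its exons, and the posterior SD of its count was 0 in all 4 libraries, so its reads were not shared with other genes.

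The other 8 genes did not share a decrease of this size. Of these, 3 were lower with an adjusted p-value under 0.05, 1 was higher and 4 were not past the threshold. Among all 8784 genes tested, 18.6% were lower and 21.4% higher by the same rule. The median log2 fold change of the 8 genes was -0.15, against -0.02 over all genes tested. The CPM values of the groups did not overlap, with the heat shock libraries lower, for 7 of the 8 genes and did not overlap in the opposite direction for Sar1. Such separation was found for 37.8% of all tested genes in the lower and 34.4% in the higher direction. For beta'COP and alphaCOP it was close to a tie. The nearest untreated and heat shock values were 307.53 and 307.49 CPM for beta'COP and 246.9 and 244.8 CPM for alphaCOP. These gaps were smaller than the differences between replicates. In bulk RNA, fewer cells with a transcript and less transcript per cell cannot be told apart.

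**Figure D1:**
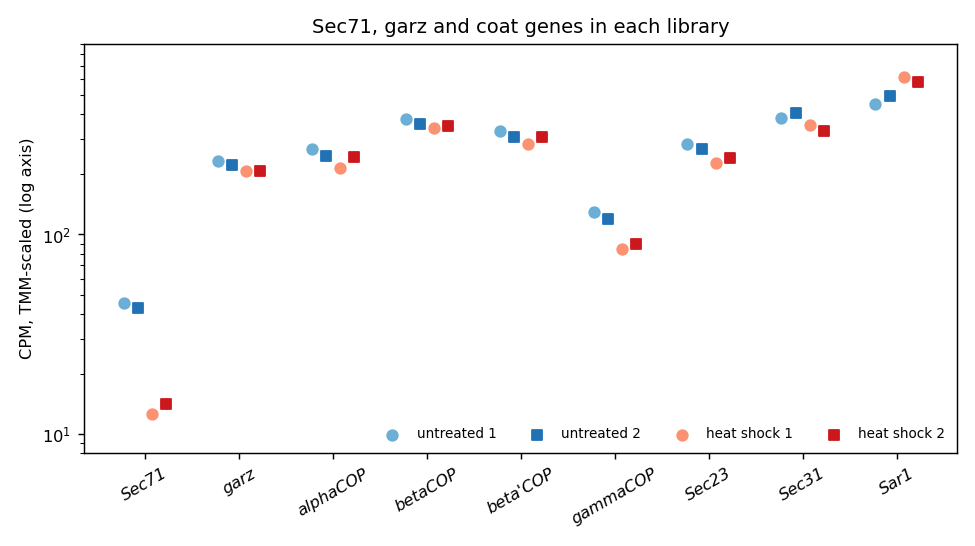
TMM-scaled CPM (log axis) of Sec71, garz and the 7 coat genes in the 2 untreated libraries (blue) and the 2 heat shock libraries (red). Sec71 averaged 44.0 CPM in untreated cells and 13.4 CPM after heat shock, gammaCOP lay between 84.1 and 129.7 CPM with a clear gap, and most other genes moved little; Sar1 was higher here but lower when libraries were scaled by total counts.

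The first comparison concerned the exchange factors. The gene garz (2R, 12326360 to 12333860) encodes the Sec7-domain exchange factor of the early Golgi. It had 233 and 222 CPM in untreated cells, compared with 207.3 and 207.5 CPM after heat shock. Its log2 fold change of -0.13 ± 0.06 (SE) did not pass the threshold (edgeR adjusted p = 0.119), with a 95% interval from -0.27 to 0.01. The heat shock level was thus at 91.2% of the untreated mean, where that of Sec71 was at 30.4%.

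This contrast between the exchange factors can be read inside each library, where no scaling enters. There were 19.5 and 19.2 Sec71 counts per 100 garz counts in untreated cells, compared with 6.06 and 6.84 after heat shock, a clear gap beside the difference between replicates. The pairing with garz and the reference genes of the ratios given later were chosen after the values had been seen. An exact permutation test of 2 against 2 libraries cannot give a two-sided p-value below 0.333, so these ratios are given without a test.

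The remaining Sec7-domain exchange factors of the list did not move with Sec71. The gene siz (schizo), an exchange factor for Arf6, rose from 67.0 and 65.8 CPM to 89.0 and 89.8 CPM, a log2 fold change of 0.43 ± 0.06 (SE, edgeR adjusted p = 0.00133), a call that was not made with total counts. The cytohesin step (steppke) had 265 and 269 CPM in untreated cells, compared with 286 and 277 CPM after heat shock, and Efa6 had 207 and 207 CPM and then 215 and 205 CPM. Neither passed the threshold, with log2 fold changes of 0.08 and 0.02. Per length, Sec71 was the gene of lowest abundance of the 5 exchange factors both before and after heat shock. In untreated cells it had 16.8 and 15.3 TPM, whereas siz had 28.25 and 27.05 TPM. After heat shock it had 3.21 and 3.60 TPM, whereas siz had 25.9 and 25.95 TPM.

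The second comparison concerned COPI, a coat of 7 subunits in which alphaCOP, beta'COP and epsilonCOP form the outer cage and betaCOP, gammaCOP, deltaCOP and zetaCOP the inner, adaptor-like layer. Among the 4 subunits named at the outset only gammaCOP passed the threshold. gammaCOP (3R, 31572143 to 31575707) had 129.7 and 119.6 CPM in untreated cells, compared with 84.1 and 89.2 CPM after heat shock. It fell to 69.5% of the untreated mean, with a log2 fold change of -0.53 ± 0.07 (SE) and an edgeR adjusted p-value of 8.6e-04. The 95% interval of its change was -0.69 to -0.36, while Sec71 was at -1.72. Whether the changes of these genes differ was not tested.

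With TMM scaling neither betaCOP nor beta'COP passed the threshold. betaCOP (X, 18381549 to 18385242) had 378 and 358 CPM in untreated cells, compared with 343 and 349 CPM after heat shock, a log2 fold change of -0.09 ± 0.06 (SE, edgeR adjusted p = 0.264). beta'COP (2L, 13378902 to 13382382) had 329 and 307.5 CPM and then 283 and 307.5 CPM, a log2 fold change of -0.11 ± 0.07 (SE, edgeR adjusted p = 0.243). The second library of each group thus held nearly the same level of beta'COP. Their 95% intervals ran from -0.23 to 0.05 and from -0.26 to 0.05, so a decrease of the size seen for gammaCOP lay outside both with TMM scaling. The calls depended on the scaling. With total counts betaCOP and beta'COP were lower and past the threshold, at -0.63 and -0.64, where the median gene was at -0.56. With totals without heat shock genes they were so at -0.26 and -0.28, where the median gene was at -0.19.

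alphaCOP, the largest cage subunit, varied more between replicates. alphaCOP (3L, 1641066 to 1645199) had 269 and 247 CPM in untreated cells, compared with 215 and 245 CPM after heat shock. The heat shock replicates differed more than the second libraries of the groups did. Its log2 fold change was -0.17 ± 0.08 (SE, edgeR adjusted p = 0.128), with a 95% interval from -0.35 to 0.02. It passed the threshold without the second untreated library and without the second heat shock library, at adjusted p-values of 0.0364 and 0.0168, and not without the first of either group.

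The 3 other COPI subunits were taken from the wider list. Only epsilonCOP fell among them, from 40.2 and 39.4 CPM to 33.1 and 33.5 CPM (log2 fold change -0.26 ± 0.07 SE, edgeR adjusted p = 0.0235). It shares 40 exonic bases, 3.62% of its exons, with Phf5a on the opposite strand. deltaCOP and zetaCOP were at log2 fold changes of -0.12 and 0.02 and did not pass the threshold. Over all 7 subunits, 2 were lower, none higher and 5 not past the threshold, with a median of -0.12, where 18.6% of all genes tested were lower and 21.4% higher.

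Read within libraries, gammaCOP changed its proportion to betaCOP. Per 100 betaCOP counts there were 34.3 and 33.4 gammaCOP counts in untreated cells, compared with 24.6 and 25.6 after heat shock. The gap between the groups exceeded the difference between replicates. For beta'COP the corresponding ratios were 86.9 and 85.8 and then 82.7 and 88.1, and for alphaCOP 71.2 and 68.9 and then 62.8 and 70.1, with overlapping groups in both cases.

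**Figure D2:**
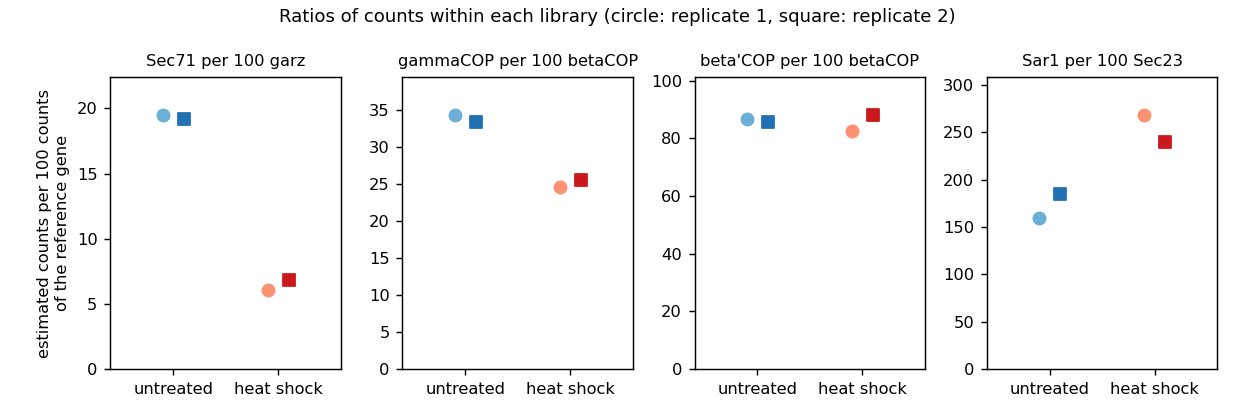
Estimated counts of a gene per 100 counts of a reference gene in the same library (y axes from 0), for Sec71 against garz, gammaCOP and beta'COP against betaCOP, and Sar1 against Sec23. The ratio of Sec71 to garz went from above 19 to below 7, that of gammaCOP to betaCOP from above 33 to below 26, that of beta'COP did not separate the groups, and that of Sar1 to Sec23 was higher after heat shock.

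The third comparison concerned COPII. Sar1 (3R, 22356685 to 22360711) is the GTPase that starts assembly of this coat at the ER. It had 453 and 495 CPM in untreated cells, compared with 612 and 582 CPM after heat shock. With TMM scaling it rose to 126.1% of the untreated mean, a log2 fold change of 0.34 ± 0.07 (SE, edgeR adjusted p = 0.00530), but the sign turned to -0.20 (edgeR adjusted p = 0.0173) when libraries were scaled by total counts. On either scale it moved upward relative to the median gene, which lay at -0.02 with TMM scaling and at -0.56 with total counts.

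Sec23, the inner-coat subunit that stimulates the GTPase activity of Sar1, and Sec31, the outer-cage subunit, were lower. Sec23 (3R, 5649065 to 5652629) fell from 284 and 267 CPM to 228 and 243 CPM, a log2 fold change of -0.23 ± 0.07 (SE, edgeR adjusted p = 0.0248). Sec31 (2R, 8893613 to 8898798) fell from 385 and 406 CPM to 353 and 331 CPM, at -0.21 ± 0.06 (SE, edgeR adjusted p = 0.0320). Their heat shock levels were at 85.4% and 86.5% of the untreated means.

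These calls were close to the threshold. That of Sec23 was lost without the first untreated library (adjusted p = 0.0857) and without the first heat shock library (adjusted p = 0.131), and that of Sec31 without the second untreated library (adjusted p = 0.104) and without the second heat shock library (adjusted p = 0.178), and by a small margin with relative log expression factors (adjusted p = 0.0502). Sec31 shares 313 exonic bases with the antisense gene asRNA:CR45202 and 70 with ana2, both on the opposite strand, and the posterior SD of its count was 16.4 to 21.3. The sources used here do not state whether counting used the strand, so reads in these stretches cannot be assigned with certainty.

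Of the 4 further COPII genes in the list, Sec16 and Sec13 fell and the cargo-binding subunits Sec24AB and Sec24CD did not pass the threshold. Sec16, the scaffold of ER exit sites, went from 283 and 278 CPM to 236 and 224 CPM (log2 fold change -0.29 ± 0.06 SE, edgeR adjusted p = 0.00708). Sec13, which forms the outer cage with Sec31, went from 244 and 245 CPM to 205 and 214 CPM (-0.22 ± 0.06 SE, edgeR adjusted p = 0.0198). Sec24CD and Sec24AB were at -0.10 and 0.01, and share 10.3% and 9.65% of their exonic bases with antisense genes on the opposite strand. In all, 4 of 7 COPII genes were lower and 1 was higher, beside 18.6% and 21.4% of all genes tested, and the 4 include the calls of Sec23 and Sec31 that were lost in several fits. The median log2 fold change of the 7 genes was -0.21.

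The proportion of Sar1 to its coat changed in the same direction in every comparison of libraries across the groups. There were 159 and 185 Sar1 counts per 100 Sec23 counts in untreated cells, compared with 268 and 240 after heat shock. For Sec31 per 100 Sec23 counts the values were 135 and 152 in untreated cells, compared with 155 and 137 after heat shock, which overlapped. The COPI gene betaCOP had 133 and 134 counts per 100 Sec23 counts in untreated cells, compared with 150.1 and 144 after heat shock.

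**Figure D3:**
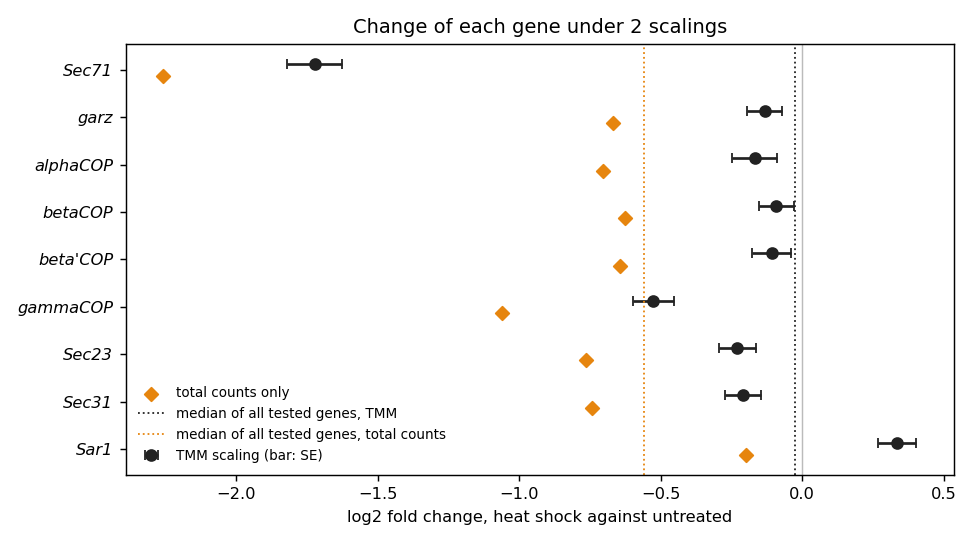
Log2 fold change of each gene after heat shock (x axis) with TMM scaling (black points, bars are SE, n = 2 libraries per group) and with total counts only (orange diamonds); dotted lines mark the medians of all tested genes, -0.02 and -0.56. Total counts moved all genes to lower values, with Sar1 from 0.34 to -0.20 and Sec71 from -1.72 to -2.26, and left their order as it was.

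The scaling of the libraries decided how many coat genes were called. Scaling by total counts moved the change of the median gene by -0.53. On that scale all 8 genes were lower and past the threshold and none was higher, where 71.2% of all tested genes were lower and 8.75% higher. With total counts that leave out the heat shock genes, 7 of the 8 were lower and Sar1 was higher, at 0.17 on the log2 scale (edgeR adjusted p = 0.0402). In that fit 37.7% of all tested genes were lower and 14.9% higher, and the median gene was at -0.19. gammaCOP was past the threshold in each of the 14 alternative fits, between -1.06 and -0.47. The change of Sec71 lay between -2.26 and -1.64 in the same fits, and its difference from that of garz between -1.67 and -1.31, the latter on log2(TPM + 1) values, a scale that understates changes of low genes.

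Levels were compared between genes per length, as TPM. In untreated cells Sar1 was highest at 662 and 702 TPM, followed by betaCOP at 256 and 236, beta'COP at 233 and 211, Sec23 at 228 and 209, and Sec31 at 204 and 209. beta'COP and Sec23 overlapped, and the higher value of Sec31 met the lower value of Sec23. alphaCOP at 144 and 128, gammaCOP at 91.4 and 82.2, garz at 75.9 and 70.4 and Sec71 at 16.8 and 15.3 TPM followed without overlap. After heat shock the order was the same except that garz, at 46.7 and 46.3 TPM, lay above gammaCOP, at 40.5 and 43.1 TPM. Sec71 remained the lowest, at 3.21 and 3.60 TPM, and Sec23 and Sec31 overlapped, at 127 and 133 TPM and at 129 and 120 TPM.

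The length of the transcripts in use was a readout that the choice of genes did not involve. The tables give for each gene a length averaged over its transcripts by their estimated abundance. Sec71, betaCOP and beta'COP have 1 transcript in the tables and hence a fixed length. For the other genes the 4 libraries differed by 0.0127% to 1.42% of the shortest value, the widest being gammaCOP, at 3081 and 3068 bases in untreated cells, compared with 3112 and 3083 after heat shock. No shift between short and long transcripts of these genes was therefore visible at a level beyond that.

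The genes closest to Sec71 in their profile over the 4 libraries were not coat genes. Likeness was measured as the Euclidean distance between log2(CPM + 1) values centred on each gene's mean, over 5732 genes with a mean of at least 10 CPM. The closest were Ppn, an extracellular matrix protein, at a distance of 0.10 and a log2 fold change of -1.60, and Elys, a nuclear pore protein, at 0.10 and -1.76. The noncoding gene lncRNA:CR43459 (distance 0.17), the tetraspanin Tsp96F (0.31) and the ion channel gene trpl (0.34) came next. Among the 8 coat and exchange factor genes gammaCOP was nearest, at a distance of 1.13 and rank 297, and Sar1 farthest, at 2.00 and rank 5050. With 4 libraries in 2 groups this measure mainly restates the size of the change.

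Other genes of the secretory pathway were examined as a list chosen with earlier results of these data known. Apart from the 9 genes above, 84 of its genes were matched and all were tested. Of these, 21 were lower, 9 higher and 54 not past the threshold. The counts are 25.0% lower and 10.7% higher genes, beside 18.6% and 21.4% of all genes tested, and the median log2 fold change was -0.10 against -0.02. With total counts 82 were lower and 0 higher, where 71.2% of all genes tested were lower and 8.75% higher. DESeq2 called 10 lower and 4 higher, beside 5.54% lower and 11.4% higher among all genes it tested. Fewer genes of the list were called higher with any single library left out. No gene of this list was as low as Sec71, which was named for its decrease. The lowest were the SNARE gene Membrin and the tethering gene Cog2, at -0.94 and -0.92.

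The COG complex, a tether for vesicles that return to the Golgi, had 5 of 7 members lower and 1 higher, beside 18.6% and 21.4% of all genes tested. Cog2 fell from 37.1 and 29.4 CPM to 15.9 and 19.4 CPM (log2 fold change -0.92 ± 0.14 SE, edgeR adjusted p = 0.00150). It shares 24.05% of its exonic bases with Hibch on the opposite strand, so its count is uncertain. Of the other lower members, Cog1, Cog4 and Cog6 share 612, 200 and 70 exonic bases with genes on the opposite strand. Cog6 and Cog4 followed at -0.58 and -0.35, while Cog3 rose by 0.26 on the log2 scale. The median of the complex was -0.31.

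Of 14 SNARE genes and their partners, 5 were lower, 1 was higher and 8 were not past the threshold, beside 18.6% lower and 21.4% higher among all genes tested. Membrin, a Golgi SNARE of low abundance, fell from 99 and 81 estimated counts to 34 and 37, a log2 fold change of -0.94 ± 0.21 (SE, edgeR adjusted p = 0.00805). Gos28, another Golgi SNARE, and Sec20, an ER SNARE for vesicles that return from the Golgi, fell by 0.47 and 0.46 on the log2 scale. Sec20 shares 16.7% of its exonic bases with CG46303 and Membrin 4.78% with Pfdn4, in both cases on the opposite strand.

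Of 5 Arf and Arl genes, Arf1 and Arf6 rose and none was called lower, beside 21.4% higher and 18.6% lower among all genes tested. Arf4 and Arl1 were at -0.34 and -0.22 and did not pass the threshold, and the median of these 5 genes was 0.01. Arf1, the substrate of garz and Sec71, rose from 1275 and 1434 CPM to 1796 and 1741 CPM (log2 fold change 0.38 ± 0.07 SE, edgeR adjusted p = 0.00419), although it shares 7.37% of its exonic bases with asRNA:CR45969 on the opposite strand. Arf6 was at 0.22 ± 0.06 (SE). Of 6 Rab GTPases of the early secretory pathway, Rab11 and Rab2 rose, by 0.26 and 0.19 on the log2 scale, and 4 did not pass the threshold, again beside 21.4% higher among all genes tested. None of these rises was called with total counts.

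In the other groups most genes were not past the threshold, and their counts stand beside 18.6% lower and 21.4% higher among all genes tested. Among the adaptors of the trans-Golgi network, Gga, an Arf-dependent clathrin adaptor, fell from 59.0 and 71.6 CPM to 49.3 and 41.1 CPM (log2 fold change -0.53 ± 0.11 SE, edgeR adjusted p = 0.00724), AP-1sigma rose by 0.31, and 6 of 8 did not pass. Of 11 golgins and tethers, 4 were lower, led by GCC88 at -0.38, Golgin84 at -0.35 and Tmf at -0.28, and 1 was higher. Gga, GCC88 and Golgin84 share 5.38%, 3.01% and 9.48% of their exonic bases with genes on the opposite strand. Among Arf GAPs Git was lower, at -0.24, and 5 of 6 did not pass. Among cargo receptors p24-2 was lower, at -0.32, but 99.5% of its exonic bases lie in Unc-115b on the same strand, so the call cannot be assigned to it. Of 6 translocon genes only Sec61alpha was lower, at -0.28.

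**Figure D4:**
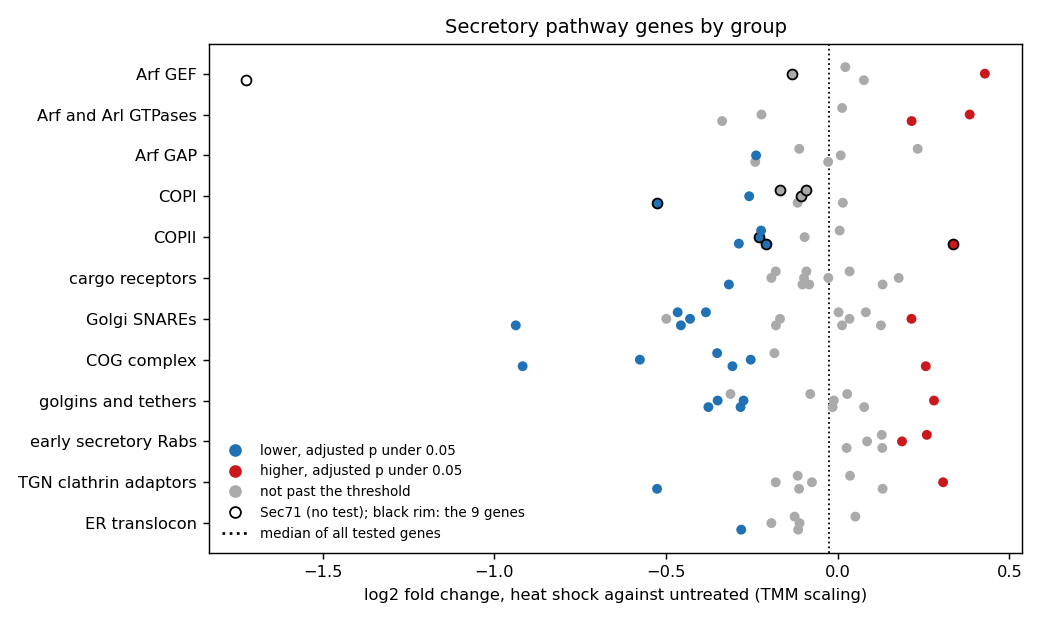
Log2 fold change after heat shock with TMM scaling (x axis) of secretory pathway genes, 1 point per gene, grouped by role; blue points were lower and red points higher with an edgeR adjusted p-value under 0.05, grey points did not pass, and black rims mark Sec71 (open, no test) and the 8 other genes. Sec71, named for its decrease in these same libraries, is at -1.72, and the values of all other genes shown lie between -0.94 and 0.43. The dotted line is the median of all tested genes. The red points were not called higher with total counts.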

How the data were processed

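Per the labels, the authors trimmed 50 bp reads with Trimmomatic 0.36, aligned them with STAR 2.6.1c to release 6 (dm6) and quantified genes with RSEM 1.3.1. The deposited tables give estimated counts (expected counts, which need not be whole), TPM values, lengths and other values such as the posterior SD of each count. Reads that fit several genes were shared among them. The strand setting is not given in the sources used here. Pooled tables of each group were not used.

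Estimated counts were rounded. Genes were kept by filterByExpr, scaled with TMM factors and tested by quasi-likelihood in edgeR 4.0.16, with Benjamini-Hochberg adjustment over the 8784 genes tested and a threshold of 0.05. CPM values use TMM-scaled totals. SEs derive from the fitted change and its F statistic. Replicates differed by more than sampling noise (chi-square per degree of freedom 4.96 and 5.69). Depths address counting error only. In simulated data a small part of the genes was changed by 1 or 2 on the log2 scale, equally often up and down. There 85.4% of the 2-fold changes were recovered and 4.28% of all calls were false, or 82.3% and 8.90% with gene-wise spreads. Smaller changes, widespread changes and a rise like that of the heat shock genes were not simulated. The rates thus do not describe the calls of the coat genes.

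Members and lists were chosen with earlier results of these data known. Of 96 list names 93 matched by symbol or unique synonym; Tango1, Cog8 and Sec62 did not. All Arf exchange factor and coat genes and the 3 largest changes past the threshold of each other list were named. For Sec71, the 5 genes with the closest profile were named. Alternatives used DESeq2 1.42.0, limma 3.58.1 on log2 TPM, other scalings and filters, a replicate block, and each library left out. Coordinates are 1-based, from the Ensembl annotation of the same assembly.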

Additional observations from a re-analysis of the deposited data

How the results depend on the processing

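Sec71 kept its sign in all 14 alternative fits, at -2.26 with total counts, -1.89 with total counts without heat shock genes, -1.95 on log2(TPM + 1) and -2.21 on log2(TPM + 0.1), and from -1.81 to -1.64 with a library left out. All these fits reuse the libraries in which Sec71 was named for its decrease, so the kept sign is a description only. Sar1 reversed to -0.20 with total counts and to -0.18 on either TPM scale. Of the fits of the 8 other genes, 80 kept direction and side of the threshold, 22 became stronger and 7 weaker; Sec31 had an adjusted p-value of 0.0502 with relative log expression factors. These scalings differ by construction in the level set to 0; other causes were not tested.

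Total counts, log2(TPM + 1) and log2(TPM + 0.1) called 7025, 6866 and 6803 genes against 3513, with 8 of the 8 genes lower and 0 higher on each, and 82, 80 and 79 lower and 0 higher genes in the wider list against 21 and 9. The higher share of calls was 10.9%, 11% and 10.8% against 53.6%. Of all genes tested 71.2%, 69.5% and 69.1% were lower in these fits, against 18.6%. Total counts without heat shock genes gave a higher share of 28.3%, 7 of the 8 genes lower, and 45 lower and 2 higher in the wider list. Of all genes tested 37.7% were lower and 14.9% higher in that fit. DESeq2 called 1808 genes, and 10 lower and 4 higher in the wider list. Its higher share was 67.3%, and it called 5.54% of all genes it tested lower and 11.4% higher. A threshold of 0.01 left 1968 of the 8784 genes tested, 1 of the 8 genes lower, and 8 lower and 3 higher in the wider list. The lower and higher shares of all genes at that threshold were not computed, so these counts have no background by direction. Without the low-count filter 5 genes of the wider list were higher, beside 15% of all genes tested in that fit.

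With a library left out, the lone sample of a group is assumed to vary like the others. The log2 fold change then ranged from -0.59 to -0.47 for gammaCOP, -0.28 to -0.19 for Sec23 and -0.26 to -0.17 for Sec31. For alphaCOP it ranged from -0.27 to -0.08, for garz from -0.17 to -0.11 and for beta'COP from -0.17 to -0.05. For betaCOP the range was -0.13 to -0.06, and for Sar1 it was 0.26 to 0.40. The labels do not say that replicate numbers pair the samples, and deviations of same-numbered libraries correlated at -0.17. A replicate block left 1 of the 8 genes lower, gammaCOP, with Sec23 and Sec31 at adjusted p-values of 0.065 and 0.0898. Sar1 stayed higher, at 0.34 (edgeR adjusted p = 0.0037). With this block 17.2% of all genes tested were lower and 20% higher. The crossed pairing, added after the data were seen, gave 6 of the 8 genes lower and 15 higher in the wider list. In that fit 26.2% of all genes tested were lower and 26.7% higher. Depth limits Membrin most among the secretory pathway genes named, with 34 counts in a library.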
